A study of Mus musculus with 20 samples.

Results

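The cells described here are mouse ES cells that still showed no RNA of 4 endoderm genes 48 h after Gata4 was switched on, called lagging cells below. They were the cells of the 2 libraries taken at 48 h that had 5000 or more UMIs (unique molecular identifiers, each counting 1 captured RNA molecule) and no UMI of Gata4, Gata6, Sox17 or Pdgfra. Of 134279 cells in the 20 libraries of the series, 17572 were taken at 48 h, 11150 of those had 5000 or more UMIs, and 1374 met the rule, 943 in replicate 1 and 431 in replicate 2. Within each library they were compared with converted cells, which had 3 or more UMIs summed over the 4 genes and numbered 2295 in replicate 1 and 4345 in replicate 2. A further 1508 and 1628 cells with 1 or 2 such UMIs lay between both classes. The names lagging and converted stand for these UMI classes and for nothing else.

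The study converted ES cells, which represent the EPI of the blastocyst, to induced XEN (iXEN) cells, which represent the PrE. All libraries used here came from the iGata4-Gata6-Venus ES line, so the untreated ES cells carried the same alleles as the treated ones, namely Col1A1TetO-Gata4/+; R26M2rtTA/+; Gata6H2B-Venus/+ in the labels. In this line doxycycline (dox) acts on a transactivator made from the Rosa26 locus and turns on a Gata4 transgene, which the study's methods give as a fusion with the red fluorescent protein mCherry, and a fluorescent Venus reporter follows Gata6. The groups were ES cells without dox, ES cells after 9, 24 and 48 h of dox, and iXEN cells, which had been treated with dox and then grown without it. Cells of 24 and 48 h were not sorted, whereas cells of 9 h were sorted and put together again. Each group had 2 libraries, described by the study as technical duplicates, so the p-values below rest on such duplicates only. Where UMI classes of the same library were compared, they measure how class differences varied between duplicates, pooled over 24 and 48 h. The spread of levels between duplicates does not enter there, since each library was fitted as a block. UMIs of the transgene and of the native Gata4 gene could not be told apart in these counts.

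In the inner cell mass, FGF4 made by cells on their way to EPI acts through FGF receptors and the ERK kinases on neighbouring cells, in which GATA6 drives the PrE programme and NANOG is lost. GATA4, SOX17 and the receptor PDGFRA come on as PrE matures, and PrE cells then lay down a basement membrane of laminins and type IV collagen and take up material through DAB2, cubilin and megalin. A GATA factor forced into ES cells pushes them onto the same path.

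The 10 libraries of ES-to-iXEN conversion held between 49240550 and 138376109 UMIs. The lagging cells summed to 8654706 UMIs in replicate 1 and 3945917 in replicate 2, against 30307723 and 63663648 for converted cells. Lagging cells were shallower, with a median of 8041 and 8408 UMIs and 2001 and 2220 genes per cell, where converted cells had 11704 and 13217 UMIs and 2609 and 2948 genes. Values from cells thinned to 1 depth or matched in depth are therefore given as well. The median share of mitochondrial UMIs was alike, 2.12% and 2.76% in lagging cells against 2.16% and 2.54% in converted cells. Both 48 h libraries shared 92 cell barcodes of 8159 and 9413, within the 34 to 134 found for other pairs of libraries. A project number carried by the files grouped 48 h replicate 1 with 24 h replicate 1 and both iXEN libraries, grouped 48 h replicate 2 with 24 h replicate 2 and both 9 h libraries, and set both ES libraries apart.

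How many cells lagged depended on the library and on depth. In replicate 1, 19.9% of the cells of 5000 or more UMIs had no UMI of the 4 genes (95% Wilson interval 18.8% to 21.0%). In replicate 2 the share was 6.73% (6.14% to 7.37%). The 2 intervals, which cover counting error only, did not overlap, and with 2 libraries a group no exact permutation test could reach 0.05. ES cells had such shares of 99.2% and 99.3%. They were 63.7% and 70.0% for the 9 h libraries, 33.9% and 38.7% for those of 24 h, and 9.18% and 1.51% for iXEN cells, so the share was lower at 48 h than at 24 h in both replicates and did not reach 0 in iXEN cells. Cells of 9 h had been sorted into marker populations and pooled again, which sets their share in part.

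Low capture alone leaves some cells without a UMI of weakly expressed genes. After every cell was thinned to 5000 UMIs, 34.1% and 21.7% of 48 h cells had none. Among cells of 10000 or more UMIs, 11.95% and 3.38% had none. If every 48 h cell of a library had carried the 4 genes at the library's own mean level, 404 cells (8.50%) of replicate 1 and 213 cells (3.32%) of replicate 2 would still have shown none, against the 943 and 431 found. A cell called lagging is therefore a cell in which these RNAs were not detectable at its depth.

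**Figure D1:**
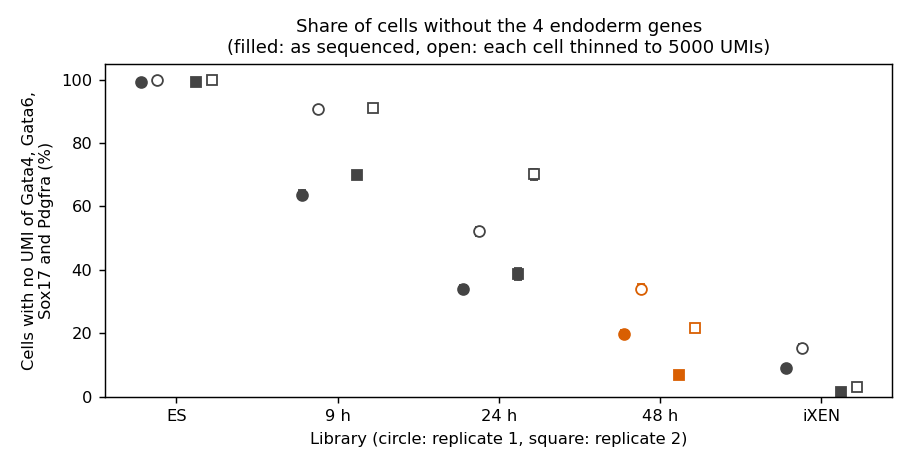
Share of cells of 5000 or more UMIs without a UMI of Gata4, Gata6, Sox17 and Pdgfra, in percent on the vertical axis, for each ES-to-iXEN library (circles replicate 1, squares replicate 2, 48 h in orange, bars 95% Wilson intervals, mostly hidden by the points). Filled points are cells as sequenced (19.9% and 6.73% at 48 h) and open points are cells thinned to 5000 UMIs (34.1% and 21.7%).

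The cells were chosen by the UMIs of these 4 genes, whose values are therefore a description. Gata4 (chr14:63198914-63271712) and Gata6 encode the zinc finger factors of the PrE, Sox17 (chr1:4490928-4497426) a later endoderm factor and Pdgfra (chr5:75151322-75198206) the PDGF receptor used to mark PrE. By construction all stood at 0 in lagging cells. In converted cells Gata4 was at 115 CPM (UMIs of the gene per 1000000 UMIs of the class) in replicate 1 and 133 in replicate 2, Gata6 at 117 and 111, Sox17 at 71.6 and 54.0, and Pdgfra at 108 and 122. The cells just outside the rule, with exactly 1 UMI, numbered 785 and 706.

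The 4 markers given with the cell group were chosen with results of these data known, so that their values describe it and are no independent support. They are Fgf4 (chr7:144861386-144865245), the growth factor ligand of the EPI, Trh (chr6:92242061-92244650), which encodes thyrotropin-releasing hormone, Lefty2 (chr1:180893108-180899107), a secreted Nodal antagonist, and Utf1 (chr7:139943856-139945112), a chromatin protein of pluripotent cells. Fgf4 was at 6.59 and 3.29 CPM in lagging cells of replicates 1 and 2 and at 1.02 and 0.126 CPM in converted cells. Trh was at 2.43 and 5.58 CPM against 0.693 and 0.0471 CPM. Lefty2 was at 13.1 and 25.1 CPM against 5.61 and 2.45 CPM. All 3 genes were higher in lagging than in converted cells of the same library, with log2 differences of 3.11 ± 0.35 (SE) for Fgf4, 3.55 ± 0.67 for Trh and 2.12 ± 0.35 for Lefty2 (edgeR quasi-likelihood test, Benjamini-Hochberg adjusted p = 3.03e-06, 0.000651 and 0.000206). Utf1, at 53.03 and 73.5 CPM against 48.5 and 43.8 CPM, differed by only 0.37 ± 0.10 (adjusted p = 0.00918).

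The same markers were all lower in lagging cells than in ES cells, which again is a description only. Fgf4 stood at 57.0 and 62.9 CPM in ES cells without a UMI of the 4 genes, Trh at 119.4 and 87.7 CPM, and Utf1 at 664 and 597 CPM. A Utf1 UMI was seen in 92.7% of ES cells of either replicate but in 18.1% and 20.6% of lagging cells, each cell thinned to 5000 UMIs, and in 19.7% and 16.6% of converted cells. Fgf4 was seen in 2.33% (1.55% to 3.51%) and 1.62% (0.789% to 3.31%) of lagging cells, 0.479% and 0.023% of converted cells, and 24.3% and 27.2% of ES cells. Lefty2 stood at 46.4 and 33.6 CPM in ES cells, nearer to lagging cells than the other 3 markers.

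**Figure D2:**
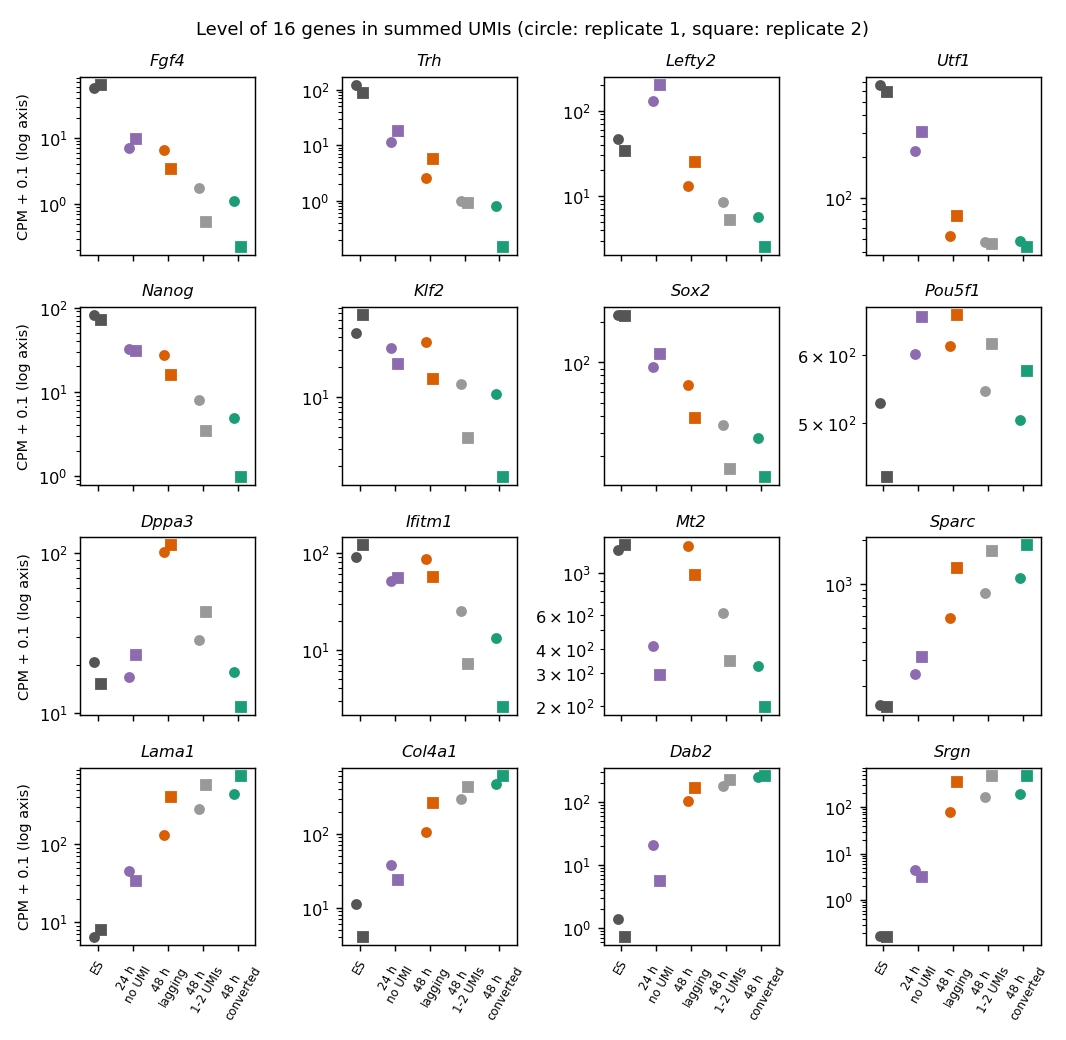
Level of 16 genes in CPM + 0.1 on a log axis, for UMIs summed over cells of a class (circle replicate 1, square replicate 2), in ES cells, 24 h cells without a UMI of the 4 genes, and lagging, 1 to 2 UMI and converted cells of 48 h. Dppa3 in lagging cells (101 and 111 CPM) lies above every other class drawn, Mt2 in lagging cells lies near its ES level, and Sparc, Lama1, Col4a1, Dab2 and Srgn in lagging cells lie between ES and converted cells.

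Beyond the rule, lagging cells carried more RNA of part of the pluripotency network than converted cells of their own library. Of 13368 genes tested, 727 were called (5.44%, adjusted p under 0.05 and a log2 difference of at least 1 in size), 506 higher (3.79%) and 221 lower (1.65%) in lagging cells. Counts of called genes in the lists of this comparison are to be read beside these shares. The balance moved with the setting, to 214 higher and 44 lower without 48 h replicate 1, 386 and 290 without 48 h replicate 2, 173 and 33 with cells thinned to 5000 UMIs, and 473 and 301 at 10000 UMIs. Of 13 naive pluripotency factors, 5 were called higher and none lower, with a list median of 0.61 where the median of all genes was -0.03 on the log2 scale. Nanog, the factor that opposes GATA6, was at 27.6 and 15.7 CPM in lagging and 4.82 and 0.88 CPM in converted cells, a log2 difference of 2.99 ± 0.24 (adjusted p = 4.82e-08). The ratio of both classes was 5.73 in replicate 1 and 17.9 in replicate 2, so the direction was shared and the size was not. Klf2, a Krüppel-like factor of the naive state, differed by 2.13 ± 0.21, the nuclear receptor gene Nr5a2 by 1.92 and Prdm14, a repressor of the primed state, by 3.17. The ratios in replicates 1 and 2 were 3.38 and 10.4 for Klf2 and 3.31 and 6.05 for Nr5a2. Prdm14 rested on 3.70 and 1.77 CPM in lagging cells, and its call ended without 48 h replicate 1, at 3.29.

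Not every naive factor took part. Tfcp2l1, Esrrb and Zfp42 were higher by 0.61, 0.61 and 0.54, past the adjusted p but under the size asked for, as 11.5% of all genes were higher past that p at any size. Nr0b1 (0.94) was in the same position and was called at 10000 UMIs (1.19), with 10 or more UMIs for converted cells (1.82) and without 48 h replicate 1 (1.05). Klf4 and Tcl1 did not pass, with differences of -0.15 and -0.01. Klf5 and Tbx3 went the other way, lower in lagging cells by a log2 difference of -0.83 and -0.30. Klf5 and Klf4 are known to be expressed in PrE as well as in EPI.

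Dppa3 (Stella, chr6:122626424-122630271), a chromatin protein of the naive EPI and germ line, had a pattern of its own. It was at 101 and 111 CPM in lagging cells and at 18.1 and 10.8 CPM in converted cells, a log2 difference of 2.89 ± 0.17 (adjusted p = 9.2e-10). ES cells had 20.7 and 15.1 CPM and 24 h cells without a UMI of the 4 genes 16.8 and 23.1 CPM, so Dppa3 in lagging cells was also above both earlier classes. Few cells held much of it, since 6.04% and 4.18% of lagging cells had 3 or more Dppa3 UMIs after thinning to 5000 UMIs, with a highest of 34 and 45. Among the 13 naive factors it had the largest difference from ES cells in the upward direction.

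Of 9 core pluripotency genes only Sox2, the partner of OCT4, was called, at 67.7 and 38.5 CPM in lagging and 27.4 and 13.9 CPM in converted cells (1.33 ± 0.09, adjusted p = 4.85e-09). Pou5f1, which encodes OCT4, was at 614 and 668 CPM in lagging cells and at 504 and 575 CPM in converted cells, a difference of 0.22 ± 0.05. Sall4 and Lin28a were lower in lagging cells, by a log2 difference of -0.41 and -0.81. Of 9 formative and primed genes tested, 2 were called higher, Otx2 (3.87 ± 0.41, at 3.58 and 3.55 CPM against 0.396 and 0.11 CPM) and Pou3f1 (1.42), while Dnmt3b and Dnmt3l, which encode DNA methyltransferase proteins, were lower by -0.77 and -0.72. The median of this list was 0.91. The call of Pou3f1 ended without 48 h replicate 1, at 1.61.

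Of 13 Nodal pathway genes, 4 were called higher and none lower, with a median difference of 0.63. Of all genes, 3.79% were called higher and 1.65% lower. Lefty2, a marker chosen with results of these data known, is among the 4 and is no independent support. A further 7 did not pass the test at any size, and 1 was lower past the adjusted p only. Tdgf1, the Nodal co-receptor also called Cripto, was at 47.3 and 18.8 CPM in lagging and 8.35 and 0.424 CPM in converted cells (3.04 ± 0.29). Lefty1, the second Nodal antagonist, differed by 1.30, and Nodal itself, the ligand, by 1.57, on 3.12 and 2.79 CPM in lagging cells. The call of Nodal ended without 48 h replicate 2, at 0.93, and with cells thinned to 5000 UMIs, as did that of Lefty1 on thinning.

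The FGF and ERK pathway was divided. Of 14 genes tested, 3 were called higher, Fgf4 and Fgfr1 (1.03), the ligand and a receptor of the EPI, and Etv5 (1.49 ± 0.18), an ETS factor that responds to FGF. Fgf4 is a given marker and so no independent support. Of all genes, 3.79% were called higher and 1.65% lower. Fgfr3, another FGF receptor, was called lower (-1.32), whereas Fgfr2, the receptor known for PrE, was at 14.8 and 13.4 CPM in lagging and 16.9 and 13.2 CPM in converted cells (-0.13, not past the test). Etv4, another ETS factor that responds to FGF, was lower by -0.65 and the feedback inhibitor gene Spry2 by -0.41. The call of Fgfr1 ended without 48 h replicate 2, at 0.89, and that of Fgfr3 without 48 h replicate 1, at -0.63.

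Among all 24 genes called higher with at least 50 CPM in the higher class and the same direction in both libraries, the 10 of largest difference were Ifitm1, Dppa3, Phlda2, Mt2, Fabp5, Alpl, Calcoco2, Lgals1, Ifitm3 and Mt1. Ifitm1 and Ifitm3 encode interferon-induced membrane proteins, and Ifitm1 was at 86.1 and 56.8 CPM against 13.1 and 2.47 CPM (3.31 ± 0.24). Phlda2, an imprinted gene, was at 131 and 71.7 CPM against 15.6 and 13.0 CPM (2.70 ± 0.18). Alpl, which encodes the alkaline phosphatase used to stain pluripotent cells, was at 73.1 and 26.9 CPM against 24.8 and 3.09 CPM (1.92 ± 0.19). Fabp5, a fatty acid carrier, differed by 2.03, Calcoco2, an autophagy receptor, by 1.85, and Lgals1, which encodes galectin-1, by 1.60. Apart from the model without libraries as a block, none of the alternative settings ended the call of any of these 10 genes.

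Mt1 and Mt2, neighbouring genes on chromosome 8 for the metal-binding metallothioneins, were the most abundant of the 10. Mt2 (chr8:94172618-94173567) was at 1381 and 975 CPM in lagging cells and at 324 and 197 CPM in converted cells (2.16 ± 0.08, adjusted p = 1.03e-12). ES cells had 1314 and 1387 CPM of Mt2, and 24 h cells without a UMI of the 4 genes 415 and 290 CPM. Mt1 was at 2384 and 1713 CPM in lagging and 794 and 588 CPM in converted cells (1.53 ± 0.07). Metallothionein genes are known to be switched on by metals through the metal response element, and the Mt2 promoter is shown for that reason. It is the 250 bases before the transcript start in the RefSeq table (GRCm38.p6, plus strand, chr8:94172368-94172617), with matches to TGCACNC or TGCGCNC, searched on both strands, in capitals.
Mt2: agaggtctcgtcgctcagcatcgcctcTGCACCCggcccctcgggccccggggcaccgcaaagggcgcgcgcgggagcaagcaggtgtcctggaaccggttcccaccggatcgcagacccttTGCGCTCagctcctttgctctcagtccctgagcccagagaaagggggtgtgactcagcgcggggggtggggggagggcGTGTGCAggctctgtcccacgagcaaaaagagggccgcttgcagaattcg
The window held 3 matches, and 1.26% of 32851 RefSeq promoter windows of this length held 3 or more, while 21.4% held at least 1. A match describes the sequence only, and this gene was chosen for display after its values were seen.

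RNA of endoderm genes that the rule did not use was counted at lower levels in lagging than in converted cells. The ratio of lagging to converted cells differed between genes of 1 library, at 0.138 for Cubn and 0.532 for Sparc in replicate 1 and at 0.487 for Cubn and 0.697 for Sparc in replicate 2. Droplets also hold free RNA of other cells, whose level was not estimated, and its part in all of these values was not tested. Of 10 endoderm transcription factor genes tested, 5 were called lower and none higher, with a median difference of -1.04. Of all genes, 1.65% were called lower and 3.79% higher. Among those called, Sox7, a relative of Sox17, was at 9.47 and 15.97 CPM in lagging and 27.3 and 33.2 CPM in converted cells (-1.34 ± 0.12). Foxa2 differed by -1.22, Hnf4a by -1.48 and Creb3l2, a regulator of secretion, by -1.18. Foxq1 and Runx1 were lower by -0.90 and -0.76, past the adjusted p only, and Klf6 was higher by 0.33. At 10000 UMIs both Foxq1 (-1.34) and Runx1 (-1.09) were called. The calls of Foxa2 (-0.91), Hnf4a (-1.18) and Creb3l2 (-0.88) ended without 48 h replicate 1.

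Basement membrane and collagen folding genes moved most evenly. Of 19 tested, 7 were called lower and none higher, and 18 were lower at any size past the adjusted p, against 14.2% of all genes tested. Col4a1 and Col4a2, which encode the paired chains of type IV collagen, were at 104 and 265 CPM and at 132 and 328 CPM in lagging cells, where converted cells had 471 and 613 CPM and 519 and 672 CPM. Their log2 differences were -1.72 ± 0.13 and -1.53 ± 0.12. The laminin genes Lama1 and Lamc1 differed by -1.34 ± 0.11 and -1.33, and Lamb1 by -0.96. Hspg2, the gene of perlecan, differed by -1.16 and the collagen hydroxylase genes P4ha1 and P3h2 by -1.11 and -1.69. Sparc, a collagen-binding protein made in bulk by PrE, was at 579 and 1271 CPM in lagging and 1088 and 1823 CPM in converted cells (-0.75 ± 0.06), and a Sparc UMI was seen in 83.5% and 90.0% of lagging cells thinned to 5000 UMIs, against 97.6% and 99.8% of converted cells and 40.7% and 44.0% of ES cells. Nid2 was the only member that did not pass (-0.07). With 48 h replicate 1 left out, the calls of Lama1 (-0.94), Hspg2 (-0.82), P4ha1 (-0.79) and P3h2 (-1.09) ended.

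Surface and endocytosis genes of the endoderm were mostly lower, with a median difference of -0.95. Of 13 tested, 5 were called lower and 1 higher, beside 1.65% and 3.79% of all genes. At any size past the adjusted p, 8 were lower and 2 higher, beside 14.2% and 11.5% of all genes. Cubn, the gene of cubilin, was at 5.66 and 27.4 CPM in lagging and 41.0 and 56.2 CPM in converted cells (-1.86 ± 0.21, adjusted p = 3.96e-06). Its partners Amn, Lrp2 (megalin) and Dab2 differed by -1.04, -1.25 and -1.02, and Pth1r, the parathyroid hormone receptor gene, by -1.51. Apoe, a lipid carrier gene also high in ES cells (513 and 510 CPM), was at 739 and 674 CPM in lagging and 247 and 361 CPM in converted cells (1.22). Srgn, the proteoglycan gene with the largest difference between lagging and ES cells below, was at 80.2 and 349 CPM in lagging and 192 and 459 CPM in converted cells (-0.83). Without 48 h replicate 1 the calls of Amn (-0.73), Lrp2 (-0.77), Dab2 (-0.67), Pth1r (-0.98) and Apoe (0.87) ended.

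The 10 genes called lower with the largest difference among 23 of at least 50 CPM were Col4a1, Hs3st1, Cyp4f14, Fgf3, Htra1, Col4a2, Pth1r, Socs1, Lama1 and Lamc1. Hs3st1, a heparan sulfate sulfotransferase, was at 14.7 and 56.0 CPM against 72.8 and 126 CPM (-1.72). Cyp4f14, a cytochrome P450, was at 13.9 and 115 CPM against 81.1 and 235 CPM (-1.62), and Fgf3, an FGF ligand, differed by -1.57. Htra1, a secreted protease, differed by -1.53 and Socs1, an inhibitor of cytokine signalling, by -1.49, a call that ended without 48 h replicate 1, at -0.99. In lagging cells 9 of these 10 were lower in replicate 1 than in replicate 2, and Socs1 was not, at 20.2 and 18.5 CPM.

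Depth and the choice of classes bear on all of these calls. Thinning every cell to 5000 UMIs and classing it again gave 206 calls, 182 of them among the 727, and of the genes named above as called lower only Cubn kept its call, while Apoe, Lefty1 and Nodal lost theirs among the genes called higher. The differences themselves were smaller on thinning, at -0.899 for Col4a1, -0.79 for Col4a2, -0.79 for Lama1, -0.77 for Lamc1, -0.57 for Dab2, -0.51 for Sox7 and -0.35 for Hnf4a. Among cells of 5000 to under 10000 UMIs only (669 and 296 lagging, 829 and 1097 converted cells), a setting chosen after seeing the data, 394 genes were called, and without 48 h replicate 1 the number was 258. The calls of Amn, Dab2, Hnf4a, Hspg2, P3h2, Sox7 and Apoe ended among those cells, those of Amn (-0.996) and Dab2 (-0.98) also with RLE scaling, and those of Dab2 and P3h2 with DESeq2. Calls were also gained at 10000 UMIs, by Klf5 (-1.17), Etv4 (-1.02), Srgn (-1.25), Lamb1 (-1.24), Sparc (-1.03), Hsp90aa1 (1.05) and Krt18 (1.38). Without 48 h replicate 2 they were gained by Foxq1 (-1.13), Srgn (-1.28), Lamb1 (-1.24), Hsp90aa1 (1.17) and Krt18 (1.21).

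**Figure D3:**
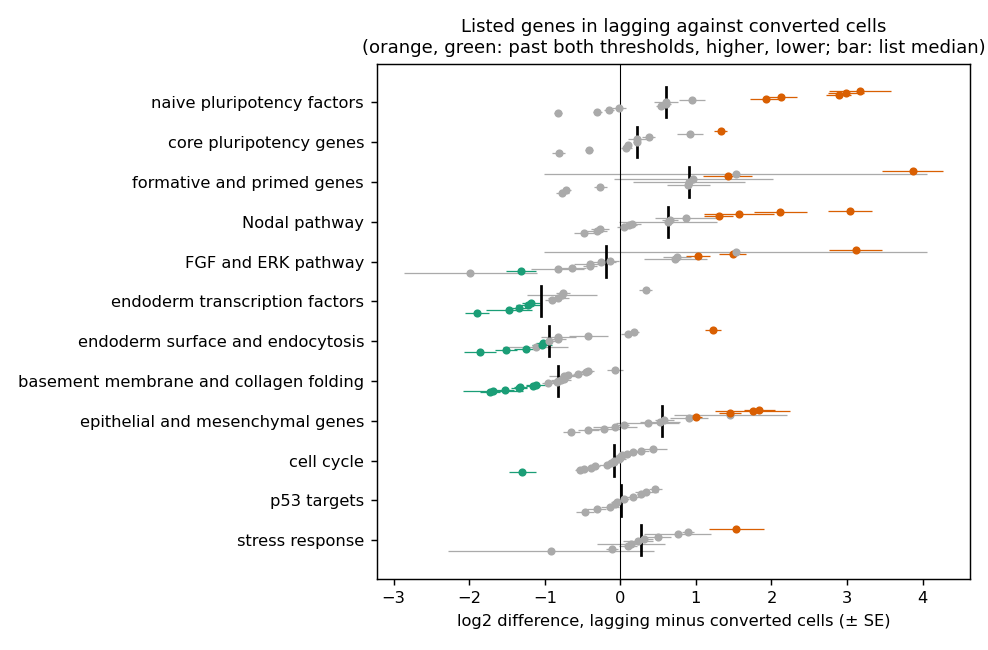
Log2 difference of lagging minus converted cells of the same 48 h library for each tested gene of 12 lists (points with SE bars), orange where called higher, green where called lower and grey otherwise, with black bars at list medians. Medians of naive factors (0.61), the Nodal pathway (0.63) and formative and primed genes (0.91) lie to the right of 0. Those of endoderm transcription factors (-1.04) and basement membrane genes (-0.82) lie to the left.

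Against ES cells many genes had changed in lagging cells. With both classes free of UMIs of the 4 genes, 3750 of 14607 genes were called (25.7%), 1986 higher (13.6%) and 1764 lower (12.1%) in lagging cells. All ES libraries carried another project number, so hour and project cannot be told apart here. The free RNA and low capture described above also bear on the comparisons with ES and 24 h cells. Their part was not tested. Of the endoderm transcription factors 8 of 10 tested were called higher, of the surface and endocytosis genes 9 of 13, and of the basement membrane and collagen folding genes 17 of 19 higher and 1 lower. Among other lists, 2 of 8 trophectoderm genes tested were called higher. Called lower were 6 of 11 stress genes, 6 of 17 cell cycle genes, 4 of 8 mesoderm genes and 3 of 5 neuroectoderm genes tested. Foxq1, a forkhead factor, was at 134 and 163 CPM in lagging and 0.258 and 0.148 CPM in ES cells (9.50 ± 0.64, adjusted p = 4.44e-05). Srgn was at 0.0737 and 0.059 CPM in ES cells, and Dab2 at 1.26 and 0.605 CPM. The fitted log2 differences were 11.57 for Srgn, 8.48 for Cyp4f14, 7.15 for Dab2 and 6.67 for Pdlim4, a cytoskeletal adaptor, and these with Foxq1 were the 5 largest called rises of at least 50 CPM.

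Pluripotency genes are to be read beside the 13.6% of all genes called higher and 12.1% called lower in this comparison. Of 13 naive factors 6 were called lower and 2 higher, the latter near the share of all genes. Of 9 core genes 3 were called lower, and of 10 formative and primed genes 7 lower and none higher. Nanog was lower by a log2 difference of -1.79, Sox2 by -2.07, Zfp42 by -1.68 and Esrrb by -2.40. Klf2 was called lower (-1.10), a call that ended without ES replicate 1 (-1.37), ES replicate 2 (-0.73) or 48 h replicate 2 (-0.66). Of 35 named genes followed in this comparison, 2 lost their call at 10000 UMIs, 1 with RLE scaling and 1 with only the 4 libraries compared. Dppa3 was higher (2.54 ± 0.22, adjusted p = 8.66e-05), as was Tbx3 (1.51). Pou5f1 did not differ past the test (0.39 ± 0.25, adjusted p = 0.239), and Klf4 and Tfcp2l1 differed by -0.02 and 0.29 without passing.

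The 5 largest called falls of at least 50 CPM were named by rule. Tcf15, a bHLH factor of ES cells about to leave pluripotency, was at 306 and 499 CPM in ES and 7.16 and 4.56 CPM in lagging cells (-6.07). The other 4 were Bmp4 (-5.54), the homeobox gene Gbx2 (-5.36), the keratin gene Krt42 (-5.17) and Rasgrp2 (-5.07), an activator of RAP1. All 4 given markers were lower, with Fgf4 at -3.52, Trh at -4.86, Utf1 at -3.35 and Lefty2 at -1.14, the last not called without ES replicate 1 (-0.89) or 48 h replicate 1 (-0.73). Of 16 FGF and ERK genes 8 were called lower, among them Etv4 (-4.89), and 1 higher, Fgfr2 (3.98). Of all genes, 12.1% were called lower and 13.6% higher. Mt1, Mt2 and Ifitm1 were not called (0.35, -0.22 and -0.57), although Ifitm1 was called lower with cells thinned to 5000 UMIs (-1.43).

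Cells of 24 h without a UMI of the 4 genes, 1648 and 1103 in number, were the nearest earlier class. Of 14607 genes 612 were called (4.19%), 382 higher (2.62%) and 230 lower (1.57%) in lagging cells of 48 h. Without 24 h replicate 1 the balance turned, to 321 higher and 385 lower. Basement membrane genes (13 of 19) and surface genes (8 of 13) were called higher and none lower, while none of the 10 endoderm transcription factors was called, with a median of 1.02. Foxq1 among them (1.36) was called in 6 alternative settings, among them DESeq2 (1.37), the replicate block (1.54) and the fit without 24 h replicate 1 (2.42). Among genes of at least 50 CPM, the 5 largest called rises were Cyp4f14 (6.08), Srgn (5.87 ± 0.63, from 4.34 and 3.12 CPM), Dab2 (3.41), Lamb1 (2.99) and Col4a2 (2.95). Of 8 trophectoderm genes tested, Gata3 (4.84) and Krt8 (1.88) were called higher.

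Of 13 naive factors 3 were called between these 2 classes, beside 4.19% of all genes. None of the 9 core genes was, although Sox2 (-0.89) was called lower without 48 h replicate 1 (-1.41). The naive factors Esrrb (-1.06) and Nr0b1 (-1.24) were called lower and Dppa3 higher (2.45 ± 0.22, adjusted p = 0.00204). Nanog was at 31.9 and 30.6 CPM at 24 h (-0.44 ± 0.25, adjusted p = 0.33), Pou5f1 differed by 0.07 and Fgf4 by -0.60, none past the test. The metallothionein genes were called higher, Mt1 by 1.88 and Mt2 by 1.80 ± 0.22.

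Among genes of at least 50 CPM, the 5 largest called falls from 24 h included the Nodal antagonist and co-receptor. Lefty2 had been at 130 and 198 CPM at 24 h (-3.10 ± 0.33, adjusted p = 0.00384) and Tdgf1 at 114 and 179 CPM (-2.06). The other 3 were Ndufa4l2 (-4.96), Pla2g1b (-2.92), a secreted phospholipase, and Cox7a1 (-2.34), a subunit of cytochrome c oxidase. Utf1 fell by 2.01 on the log2 scale and Trh by 1.94.

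One library could end calls here. Without 48 h replicate 2, 182 genes were called, and without 24 h replicate 2, 392. Calls ended without 48 h replicate 2 for Cyp4f14 (3.94), Dab2 (3.04), Col4a2 (2.18), Cox7a1 (-2.02), Tdgf1 (-1.57), Trh (-2.50) and Ndufa4l2 (-4.81), and without 24 h replicate 2 for Cyp4f14 (5.27), Col4a2 (2.68), Cox7a1 (-1.41), Tdgf1 (-1.67) and Trh (-1.57). Without 48 h replicate 1 they ended for Cox7a1 (-2.93), Trh (-1.35) and Ndufa4l2 (-5.30), and without 24 h replicate 1 for Col4a2 (3.28). Of 26 named genes followed in this comparison, 6 lost their call at 10000 UMIs and 4 with only the 4 libraries compared.

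At 24 h cells could be split by the same UMI classes, and the difference between both splits was tested directly. Of 13368 genes 180 (1.35%) differed between the 48 h contrast and the 24 h contrast, 129 with a larger value at 48 h (0.965%) and 51 with a smaller one (0.382%). Of the 4 given markers Lefty2 was called, and Trh (1.04) was called without 48 h replicate 1 only (4.20). At 24 h Lefty2 was at 130 and 198 CPM in cells without a UMI and at 151 and 394 CPM in cells with 3 or more, whereas at 48 h it was higher in the cells without (difference of contrasts 2.70 ± 0.39, adjusted p = 0.000465). Phlda2 (2.21 ± 0.23), Fabp5 (1.52 ± 0.10), Alpl (1.66 ± 0.23), Tdgf1 (1.82) and Etv5 (1.26) also separated the classes more at 48 h. Nanog at 24 h was at 31.9 and 30.6 CPM against 5.61 and 4.14 CPM, and its split did not differ past the test between hours (0.27), nor did those of Fgf4 (0.33), Dppa3 (0.96) and Col4a1 (-0.43). The difference for Dppa3 was called without 48 h replicate 1 (1.41), at 10000 UMIs (1.18) and without the 5% of cells with the most UMIs (1.05). The call of Etv5 ended without 48 h replicate 2, at 0.96, where 104 genes were called, and 89 were called without 48 h replicate 1.

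On a log2 scale of CPM, lagging cells lay near the middle of the path from ES to iXEN cells. Position was the mean log2(CPM + 1) of 100 iXEN genes minus that of 100 ES genes. It was scaled so that ES cells stood at 0% and iXEN cells at 100%. These were the 100 genes highest in iXEN against ES cells and the 100 highest in ES against iXEN cells, the 4 rule genes left out. Lagging cells were at 40.0% and 48.3%, cells with 1 or 2 UMIs at 48.2% and 56.2%, and converted cells at 52.4% and 59.4%. The gap of 48 h lagging cells to 24 h cells without a UMI, which lay at 21.8% and 17.7%, was wider than their gap to converted cells of the same library. Even 24 h cells with 3 or more UMIs, at 29.2% and 24.1%, lay below lagging cells of 48 h. Loss of ES genes (48.1% and 53.7%) was ahead of gain of iXEN genes (33.8% and 44.1%) in lagging cells, as it was in converted cells (61.4% and 70.9% against 45.4% and 50.6%).

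Position rose by small steps with the UMIs of the 4 genes. In replicate 1 it went from 40.0% in cells with none to 47.0% with 1 UMI, 49.6% with 2, and 55.0% with 10 or more. In replicate 2 the same classes were at 48.3%, 55.5%, 56.8% and 60.1%. The step from none to 1 UMI was the largest in both libraries. Depth rose along these classes as well, from a median of 8041 and 8408 UMIs per cell with none to 17977.5 and 21851.5 with 10 or more. The part of depth in this rise and in the values below was not tested. Cells without a UMI that were just under the depth asked for, with 4000 to under 5000 UMIs (141 and 76 cells), lay at 42.8% and 53.5%. Their loss of ES genes was 55.2% and 68.9%, against 48.1% and 53.7% in lagging cells. Their gain of iXEN genes was not higher, at 33.2% and 41.6% against 33.8% and 44.1%. Sums over so few cells hold few UMIs, and the part of that in these values was not tested. Dppa3 fell along the same classes, from 101 and 111 CPM with none to 32.0 and 64.6 CPM with 1 UMI and 11.5 and 7.95 CPM with 10 or more, and Col4a1 went from 104 and 265 CPM to 607 and 755 CPM.

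**Figure D4:**
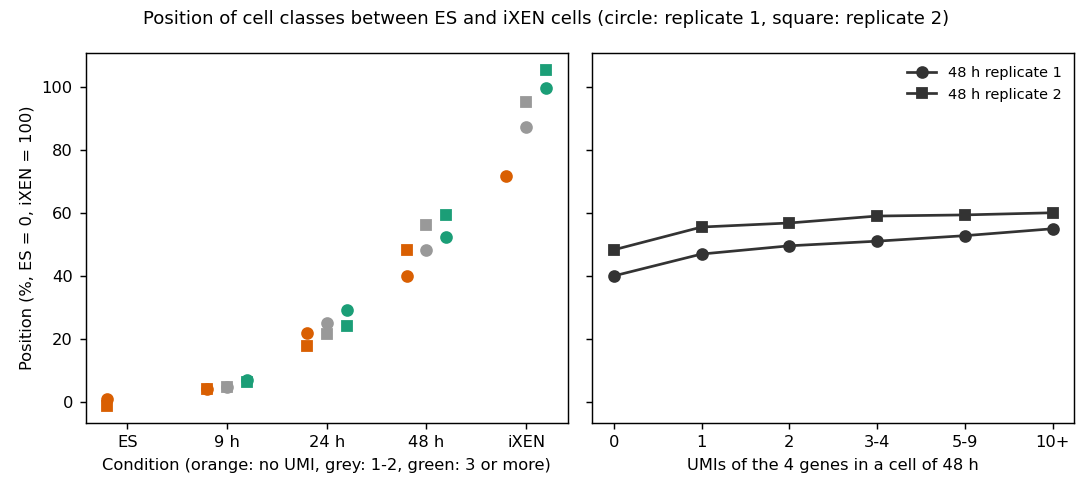
Left, position between ES (0%) and iXEN (100%) of each UMI class in each library (orange no UMI of the 4 genes, grey 1 to 2, green 3 or more, circle replicate 1, square replicate 2). Right, position of 48 h cells by their UMIs of the 4 genes, from 40.0% and 48.3% with none to 55.0% and 60.1% with 10 or more.

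Single cells varied widely within the class. With each cell thinned to 5000 UMIs, lagging cells held a median of 23 UMIs of the 100 iXEN genes in replicate 1 (quartiles 14 and 35) and 44 in replicate 2 (24 and 59). Converted cells held 41 and 58, and ES cells 2 in either replicate. Cells of the iXEN libraries with 3 or more UMIs of the 4 genes held 247 and 240. Counted in UMIs, both 48 h classes were therefore far nearer to ES than to iXEN cells in these genes. Of the 100 ES genes lagging cells held 42 and 44 UMIs, converted cells 36 and 41, and ES cells 79 and 67. Only 39 of 943 lagging cells (4.14%) and 10 of 431 (2.32%) had both sums within the range of ES cells, set at the 95th percentile of ES cells for iXEN genes and the 5th for ES genes.

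**Figure D5:**
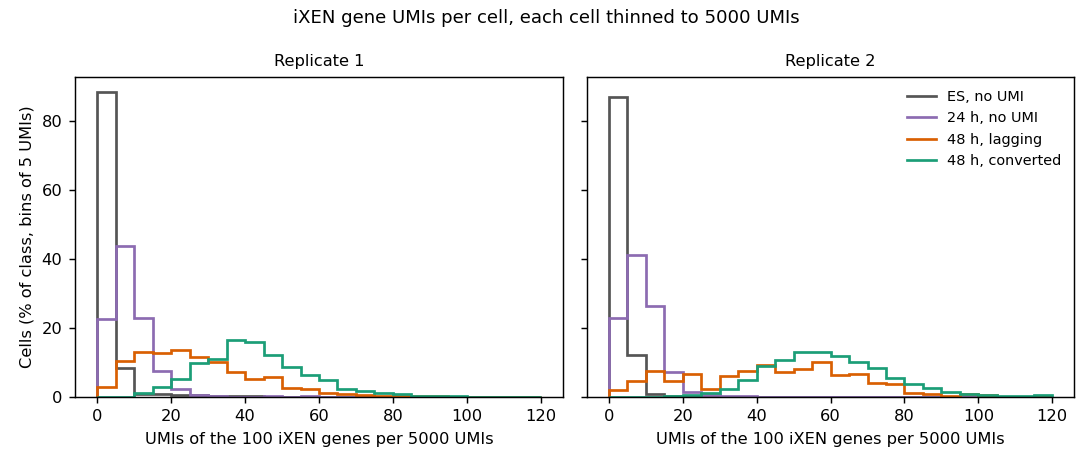
Distribution over cells of UMIs of the 100 iXEN genes, each cell thinned to 5000 UMIs, as percent of the class in bins of 5 UMIs (higher values in the last bin), for ES cells, 24 h cells without a UMI of the 4 genes, and lagging and converted cells of 48 h. Lagging cells (orange, medians 23 and 44) spread from the range of 24 h cells into that of converted cells (green, medians 41 and 58).

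Lagging cells with and without a Dppa3 UMI were also set side by side. Dppa3 was found in 20.5% and 15.5% of them at 5000 UMIs, against 6.58% and 3.61% of converted cells and 8.43% and 6.90% of ES cells. The 193 and 67 lagging cells with Dppa3 had a median of 19 and 18 UMIs of the iXEN genes, and the 750 and 364 without it 25 and 49. Nanog stood at 63.2 and 50.7 CPM in cells with Dppa3 and at 17.3 and 7.14 CPM in cells without, and Sparc at 458 and 555 CPM against 666 and 1487 CPM. Ifitm1 was at 163 and 191 CPM with Dppa3 and at 42.9 and 23.6 CPM without, and Mt2 at 1461 and 2275 CPM against 1182 and 663 CPM. Converted cells with and without Dppa3 differed in the same directions, so the pattern was not particular to lagging cells. In converted cells Nanog stood at 9.27 and 3.82 CPM with Dppa3 and at 3.17 and 0.573 CPM without. Ifitm1 stood there at 31.8 and 17.8 CPM against 8.02 and 0.955 CPM, and Mt2 at 501 and 349 CPM against 274 and 193 CPM. Their median UMIs of the iXEN genes were 36 and 50 with Dppa3 and 41 and 58 without. These splits are descriptions over cells and were not tested.

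Lagging cells were found in every cluster deposited with the counts, in unequal shares. In replicate 1 they were spread over all 11 clusters, with the largest shares in clusters 1 and 4 (26.8% and 20.6% of them), which held 13.7% and 14.6% of all cells of 5000 UMIs. In replicate 2 no cluster held more than 19.3% of them. In cluster 1 of replicate 1, 38.9% of the cells were lagging. In replicate 2 the small cluster 1 was 42.1% lagging (8 of 19 cells), and the other clusters ranged from 0.542% to 15.8%.

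Further lists were set beside the 3.79% of all genes called higher and 1.65% called lower in lagging cells. Of 17 cell cycle genes 5 were lower past the adjusted p at any size, as were 14.2% of all genes, and only Ccnd2, a cyclin, was called, with a difference of -1.30 on 4.74 and 12.9 CPM, a call that ended without 48 h replicate 1 (-0.83) and on thinning (-0.59). Mki67 and Top2a, read in dividing cells, were lower by -0.49 and -0.53. None of 10 p53 targets was called, and Cdkn1a and Bax were higher by 0.46 and 0.28 while 1 other was lower past the adjusted p. Of 10 stress genes 1 was called, Trib3 (1.53, ended without 48 h replicate 2 at 0.87), and the 11 genes listed summed to 1560 and 1126 CPM in lagging and 816 and 749 CPM in converted cells, mostly Hsp90aa1 at 1298 and 947 CPM against 569 and 602 CPM (0.89). Of 14 epithelial and mesenchymal genes 4 were called higher. Cldn7, a claudin, differed by 1.84 ± 0.20 and Fn1, the gene of fibronectin, by 1.45 ± 0.14. Their ratios in replicates 1 and 2 were 2.83 and 7.25 for Cldn7 and 2.12 and 4.69 for Fn1. The other 2 rested on little: Epcam stood at the limit of 1 (0.93 without 48 h replicate 1), and Cdh2 turned to -4.61 without 48 h replicate 1, with 24 UMIs in lagging cells of replicate 1 and none in replicate 2. Cdh1, which encodes E-cadherin, did not differ past the test (0.05).

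Markers of other cell types differed by list. The 10 fibroblast genes summed to 1.85 and 0.253 CPM, with Col1a1, Col3a1, Lum, Dcn and Postn at 0 in both libraries. The 9 genes of 2-cell-like cells in the files summed to 0.347 and 0 CPM. The 8 mesoderm genes summed to 1.85 and 2.03 CPM in lagging and 1.91 and 2.21 CPM in converted cells, and 1 of 3 tested, Mesp2, was called higher (2.12), a call that ended without 48 h replicate 1 (2.35), 48 h replicate 2 (2.14) or 24 h replicate 2 (2.12). The 8 neuroectoderm genes summed to 7.63 and 6.59 CPM against 1.98 and 1.48 CPM, with Pax3 and Neurog2 at 0, and to 38.9 and 52.3 CPM in ES cells. Tubb3 and Elavl3 were called higher among them, by 3.27 ± 0.39 and 2.12, the latter not without 48 h replicate 1 (2.48) or 48 h replicate 2 (2.06). The 9 trophectoderm genes summed to 258 and 148 CPM against 138 and 143 CPM, nearly all from Krt8 and Krt18, with Elf5 at 0, and Krt7 (4.62 and 6.34 CPM) was called higher by 2.87 ± 0.38. Thinning ended the calls of Trib3, Epcam, Cdh2, Elavl3 and Mesp2. The part of these cells in the results above was not tested.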

How the data were processed

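Libraries were 10x Genomics 3' v2, reads were counted by the authors with SEQC, and the submitters' processing notes name mm10. The deposited values are whole, unscaled UMI counts of each gene in each cell, after the authors had removed cells rich in mitochondrial UMIs (the highest share left in cells of 5000 or more UMIs was 16.6%). Gene symbols were placed by RefSeq GRCm38.p6, the same assembly, where 19303 of 21688 matched. The authors' cluster numbers, deposited beside the counts, were only described.

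Counts were summed per library and UMI class, so that cells were never the unit of a test, and CPM was taken from these sums. Sums were fitted with edgeR 4.0.16 in R 4.3.3 (limma 3.58.1; TMM, filterByExpr, quasi-likelihood test, Benjamini-Hochberg adjustment over all genes tested) with 4 residual degrees of freedom. Classes of 1 library were compared in 12 sums of 24 and 48 h with the library as a block. Conditions were compared in 8 sums of cells without a UMI of the 4 genes. A call needed an adjusted p under 0.05 with a log2 difference of 1 or more in size. The quasi-likelihood test gives no SE of its own. The SE printed is the size of the log2 difference divided by the square root of the test's F statistic. No doublet caller was run; leaving out the 5% of cells with the most UMIs stood in for one.

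Genes were named if they were in 1 of 19 lists (204 of 209 genes in the files) or among the 10 (lagging against converted) or 5 (against ES and 24 h cells) largest called rises and falls with at least 50 CPM and the same direction in both libraries. The members and lists were chosen with earlier results of these data known. Alternatives were RLE scaling, DESeq2 1.42.0, no filter on low counts, 10000 UMIs per cell, thinning to 5000 UMIs, 10 mitochondrial percent, 10 UMIs for converted cells, fewer libraries in the model, the replicate block, other axis genes and pseudocounts, each library left out and, chosen after seeing the data, cells of 5000 to under 10000 UMIs. On simulated data, of 200 genes changed by a log2 difference of 2, 90% were recovered for lagging against converted cells with 1 false call, 85.5% against ES cells with 1, 84% against 24 h cells with 3, and 86% for the difference of contrasts with 12. The simulation gave every gene the same dispersion and let libraries differ in depth only. Its recovery and false calls therefore check the fits and do not describe these data. The values of 1 listed gene are not reported here.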

Additional observations from a re-analysis of the deposited data

Results flagged for a closer look

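For 20 named genes the difference between cells without a UMI of the 4 genes and cells with 3 or more changed from 24 h to 48 h by a log2 difference of at least 1 in size, by the test of the change itself (edgeR quasi-likelihood test on a contrast of contrasts, Benjamini-Hochberg adjusted p under 0.05). The values are the 48 h difference minus the 24 h difference on the log2 scale, and 1.35% of all genes tested were called.

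Tdgf1 (1.82), Etv5 (1.26), Lefty1 (1.01), Tubb3 (2.28), Phlda2 (2.21), Alpl (1.66) and Fabp5 (1.52) were higher in the cells without a UMI at 24 h by ratios between 1.02 and 2.47, and the gap was wider at 48 h. Rasgrp2 (1.23) and Pla2g1b (1.15) had ratios between 0.973 and 1.09 at 24 h and were higher in the cells without a UMI at 48 h. Lefty2 (2.70) and Etv1 (1.15) turned from ratios under 1 at 24 h to ratios over 1 at 48 h.

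Fgfr2 (1.53), Dusp4 (1.35), Cyp4f14 (2.00), Socs1 (1.39) and Srgn (1.29) were higher in converted cells at 24 h, and that gap was smaller at 48 h. Fgfr2 had ratios of 0.316 and 0.292 at 24 h and of 0.874 and 1.02 at 48 h.

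Lrp2 (-1.04) was lower in the cells without a UMI by a wider gap at 48 h. Cldn6 (-1.09) was higher in those cells at both hours, with ratios of 3.00 and 3.24 at 24 h and of 1.45 and 1.64 at 48 h. Kit (-2.10) turned from ratios of 2.44 and 2.31 to 0.49 and 0.722, on levels between 0.481 and 4.95 CPM. Ccnd2 (-2.52) was at 4.17 and 0.437 CPM in 24 h cells without a UMI and at 1.56 and 0.438 CPM in those with 3 or more, so its 24 h values rest on little RNA.

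Leaving out 1 library ended the call of 14 of these genes and of none of Lefty2, Tdgf1, Fgfr2, Phlda2, Fabp5 and Alpl. Without 48 h replicate 1 the calls of Tubb3 (2.37), Rasgrp2 (2.33), Etv1 (1.56), Dusp4 (0.85), Kit (-1.77), Cldn6 (-0.98) and Lrp2 (-0.55) ended. Without 48 h replicate 2 those of Cyp4f14 (1.07), Lefty1 (0.97), Etv1 (0.96), Etv5 (0.96), Rasgrp2 (0.95), Srgn (0.86) and Pla2g1b (0.86) ended. Without 24 h replicate 1 those of Cyp4f14 (1.55), Socs1 (0.72), Lrp2 (-0.87) and Ccnd2 (-1.34) ended, and without 24 h replicate 2 those of Etv1 (0.90), Lefty1 (0.79) and Kit (-2.12). Thinning to 5000 UMIs ended 11 of the 20 calls, Fgfr2 (1.15) among them, 10 or more UMIs for converted cells ended 8, and DESeq2 ended 5, Tdgf1 (2.60) among them. Lefty2, Phlda2, Fabp5 and Alpl lost their calls only in the model without libraries as a block.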

How the results depend on the processing

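Lagging against converted cells gave 727 calls, 206 with cells thinned to 5000 UMIs, 394 among cells of 5000 to under 10000 UMIs (chosen after seeing the data) and 6 without libraries as a block (no replicate block), and 258 to 710 with 1 library left out, the least without 48 h replicate 1. Plain CPM scaling moved the median gene by 0.11 against TMM. Lagging against 24 h cells gave 612 calls, 946 with DESeq2, 976 without a filter on low counts, 172 at 10000 UMIs, 996 on thinning, 192 with only 4 libraries in the model, and 182 to 737 with 1 library left out. The difference between 48 h and 24 h contrasts gave 180 calls, 112 with DESeq2, 281 without a filter, 24 on thinning, 67 among cells of 5000 to under 10000 UMIs, 85 with 10 or more UMIs for converted cells, 0 without libraries as a block (278 at an unadjusted p under 0.05), and 89 to 201 with 1 library left out. Lagging against ES cells (3750 calls) stayed between 2762 and 4034 in all settings. The share of lagging cells, 19.9% and 6.73%, was 11.95% and 3.38% at 10000 UMIs and 34.1% and 21.7% on thinning. The position of 44.2% stayed between 40.0% and 49.4%. Between conditions the replicate number as a block gave 3792 calls against ES cells and 664 against 24 h cells, where the number went with the files' project number for 24 h and 48 h (correlation of deviations 0.22) and otherwise only named samples (-0.024 to 0.059). Of 1423 values of 95 named genes in the first comparison, 1265 kept direction and side of the threshold, 135 lost the call, 22 gained it and 1 reversed, Cdh2 without 48 h replicate 1 (-4.61, and 1.84 without 48 h replicate 2). The cause was not tested. Lagging cells are few and shallow, so low genes rest on few UMIs there, classes of 1 library are not independent samples, and 2 duplicates a group give 4 residual degrees of freedom. The quasi-likelihood test also shares information on spread across genes. Its small p-values therefore do not stand for many replicates.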
